A study of Mus musculus with 6 samples.

Results

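The cluster of miR-221 and miR-222 is a pair of microRNA (miRNA) precursors that lie side by side on the X chromosome. Its members were taken by name: mmu-miR-221-3p and mmu-miR-222-3p, plus their opposite arms mmu-miR-221-5p and mmu-miR-222-5p. All 4 were listed, out of 451 miRNAs measured. They were followed in 3 small RNA libraries of small extracellular vesicles (small EVs) and in 3 of the T cell blasts that secreted them, numbered 1, 2 and 5 in both groups. Libraries with the same number are called a culture here, a pairing that the labels do not state and in which the values set only number 5 apart. All cultures were started from the spleens of WT C57BL/6 mice, 8 to 12 weeks old. Total splenocytes were cleared of erythrocytes and stimulated with 2 µg/ml of the T cell mitogen concanavalin A. After 36 h they were washed and kept in EXO-free serum with 50 U/ml IL-2, so small EVs and blasts share the strain and the stimulation. Small EVs were collected on day 6 by serial ultracentrifugation, ending at 100000 g. The methods name no sort of these cells, which limits both groups as a model of T cells. A legend of the study calls them CD4+ T cells, and the labels' name, T cell blasts, is used here.

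A miRNA precursor is a hairpin from which an arm at the 5′ side (5p) and an arm at the 3′ side (3p) are cut. One arm is usually kept in an Argonaute protein and pairs through its seed, bases 2 to 8, with target mRNAs. The 3p arms are the well-known products of this cluster. They repress the cell cycle inhibitor p27Kip1 and the receptor tyrosine kinase KIT, are abundant in proliferating and endothelial cells, and rise when T lymphocytes are activated.

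The mature sequences are shown because both 3p members carry one seed, while the 5p arm of miR-221 carries another. They run 5′ to 3′, with the seed in capitals, and come from RefSeq on GRCm38.p6, where 3 of the 4 members were matched. mmu-miR-222-5p is named only.
mmu-miR-221-3p: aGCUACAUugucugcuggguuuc
mmu-miR-222-3p: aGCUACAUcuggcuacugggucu
mmu-miR-221-5p: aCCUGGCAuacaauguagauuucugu
No other listed miRNA that was matched in RefSeq (370 of the 451) had the seed GCUACAU or the seed CCUGGCA. The 3p members are identical over their first 8 bases. Without gaps they share 11 of 23 positions (47.8%), and every position that differs lies 3′ of the seed.

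The precursors are shown to place these arms, with the annotated mature arms in capitals.
Mir221: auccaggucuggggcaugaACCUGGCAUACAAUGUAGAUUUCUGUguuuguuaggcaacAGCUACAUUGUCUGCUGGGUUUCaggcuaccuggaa
Mir222: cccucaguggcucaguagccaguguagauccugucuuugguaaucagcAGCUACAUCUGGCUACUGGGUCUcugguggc
Mir221 lies on chromosome X of GRCm38 from 19146294 to 19146388 and Mir222 from 19146893 to 19146971, both on the minus strand, with 504 bases between them. Mature mmu-miR-221-3p spans 19146307 to 19146329, mmu-miR-221-5p spans 19146344 to 19146369 and mmu-miR-222-3p spans 19146901 to 19146923. In GENCODE M21 neither hairpin lies within another gene. The nearest is Gm14636, a processed transcript on the same strand, 10010 bases away.

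The libraries held 261393 to 463498 reads in small EVs and 236432 to 279737 reads in T cell blasts, counted over the listed miRNAs. The values are CPM as normalized by the authors, that is, reads relative to the size of the library, a share of each library and not an amount per vesicle or per cell, so a change in one miRNA's RNA cannot be told apart from a change in the rest. All 6 lymphoid marker miRNAs were present, with a summed level between 68053 and 92369 CPM in small EVs and between 87285 and 108969 CPM in blasts. Small EVs also held more of several miRNAs of other cell types. The summed level of 9 of the 10 endothelial and stromal markers ranged between 3194 and 5726 CPM in small EVs. In blasts it ranged between 232 and 306 CPM, and 4 of the 9 (mmu-miR-125b-5p, mmu-miR-145a-3p, mmu-miR-199a-3p and mmu-miR-199a-5p) had no read there. Each of the 9 lay higher in every small EV library than in any blasts. Most of the small EV sum, however, was mmu-miR-10b-5p. Small EVs 1, 2 and 5 held 3517, 3931 and 1944 CPM of it. Blasts 1, 2 and 5 held 18.7, 22.0 and 33.5 CPM. For mmu-miR-126a-5p, which made up most of the blast sum, these levels were 714, 821 and 562 CPM against 165, 198 and 225 CPM. For mmu-miR-143-3p they were 641, 697 and 458 CPM against 3.75, 7.33 and 0 CPM. The 4 red cell markers gave sums of 660 to 949 CPM in the small EV libraries and 109 to 134 CPM in the blasts, where mmu-miR-451a, mmu-miR-144-3p and mmu-miR-144-5p had no read and the sum was that of mmu-miR-486a-5p, which can share reads with a near-identical copy. Of the myeloid pair only mmu-miR-223-3p was listed, between 15.3 and 20.9 CPM in small EVs and between 0 and 3.67 CPM in blasts. The 6 of 7 epithelial markers listed had sums between 437 and 487 CPM in small EVs and between 367 and 374 CPM in blasts, but this rested on mmu-miR-141-3p. Without it, a choice made after seeing the data, small EVs had a sum of at most 241 CPM (lowest 205) and blasts of at most 292 CPM (lowest 239.7), and mmu-miR-200b-3p was at 132, 91.7 and 132 CPM in small EVs 1, 2 and 5 against 116, 172 and 225 CPM in blasts 1, 2 and 5. Because miR-221 and miR-222 are also endothelial miRNAs, these levels stand beside the results that follow. Their part in them was not tested.

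Both 3p members were found in every library. Neither passed when small EVs were compared with blasts without regard to the library number. Both passed, in opposite directions, when libraries of the same number were compared, which rests on 3 pairs. In each of the 3 numbered cultures, mmu-miR-221-3p was higher in small EVs than in the blasts of the same number, whereas mmu-miR-222-3p was lower, although its counting intervals overlapped in cultures 1 and 2. mmu-miR-221-5p was lower in small EVs in each culture, and mmu-miR-222-5p was at the limit of detection. Culture 5 carried 1.68 to 3.68 times as much of the 3p members as the other cultures, so the spread within a group was larger than the shift between small EVs and blasts.

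mmu-miR-221-3p had 689, 568 and 1781 CPM in small EVs 1, 2 and 5, from 329, 260 and 513 reads. In T cell blasts 1, 2 and 5 it had 356, 319 and 1173 CPM, from 95, 87 and 245 reads. The groups overlapped, since blasts 5 lay above small EVs 1 and 2, but each small EV library was above the blasts of its own number, by 1.94-, 1.78- and 1.52-fold in cultures 1, 2 and 5. The means were 1013 ± 668 CPM in small EVs and 616 ± 483 CPM in blasts (SD, n = 3 each). Small EVs were compared with blasts in limma on log2(CPM + 1), fitted across all 451 miRNAs. The threshold was that of the study's methods, an adjusted p (Benjamini-Hochberg) under 0.2. The study's heat map of cells and exosomes was limited to an adjusted p under 0.02, which no member passed here without a block. For mmu-miR-221-3p the log2 fold change was 0.79 (standard error 0.58, 95% interval -0.56 to 2.15), which did not pass (adjusted p = 0.43, limma). An exact permutation test over the 6 libraries gave a 2-sided p of 0.4, where 0.1 is the smallest that 3 against 3 allow. With the replicate number as a block, which compares small EVs and blasts within a culture, the standard error was 0.15 and mmu-miR-221-3p passed as higher in small EVs (95% interval 0.46 to 1.13, adjusted p = 0.00476, limma). This fit borrows variance across miRNAs. With 3 pairs alone, an exact test that flips the signs of the differences cannot give a p under 0.25. Without a block mmu-miR-221-3p passed when T cell blasts 5 were left out (log2 fold change 1.39, adjusted p = 0.108, limma), which kept the high small EVs 5. It did not pass when small EVs 5 were left out instead (log2 fold change 0.29, adjusted p = 0.865, limma).

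mmu-miR-222-3p had 360, 262 and 604 CPM in small EVs 1, 2 and 5, from 172, 120 and 174 reads. In T cell blasts 1, 2 and 5 it had 401, 348 and 1211 CPM, from 107, 95 and 253 reads. The groups overlapped again, yet every small EV library lay below its own blasts, at 0.899, 0.753 and 0.499 times their level in cultures 1, 2 and 5. The means were 409 ± 176 CPM in small EVs and 653 ± 484 CPM in blasts (SD, n = 3 each). The log2 fold change was -0.52 (standard error 0.50, 95% interval -1.69 to 0.65) and did not pass (adjusted p = 0.566, limma), and the exact permutation test gave a 2-sided p of 0.6. With the replicate block it passed as lower in small EVs (standard error 0.19, 95% interval -0.95 to -0.092, adjusted p = 0.0783, limma). This call depended on culture 5 and on scaling: with the block it was lost without number 5 in both groups (log2 fold change -0.28, adjusted p = 0.264, limma) and after rescaling all libraries to an equal sum (-0.35, adjusted p = 0.205, limma). Without the block, leaving out T cell blasts 5 turned the direction (0.043). Small EVs 1 (360 CPM) also lay above blasts 2 (348 CPM), so the lower level held only against blasts of the same number.

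**Figure D1:**
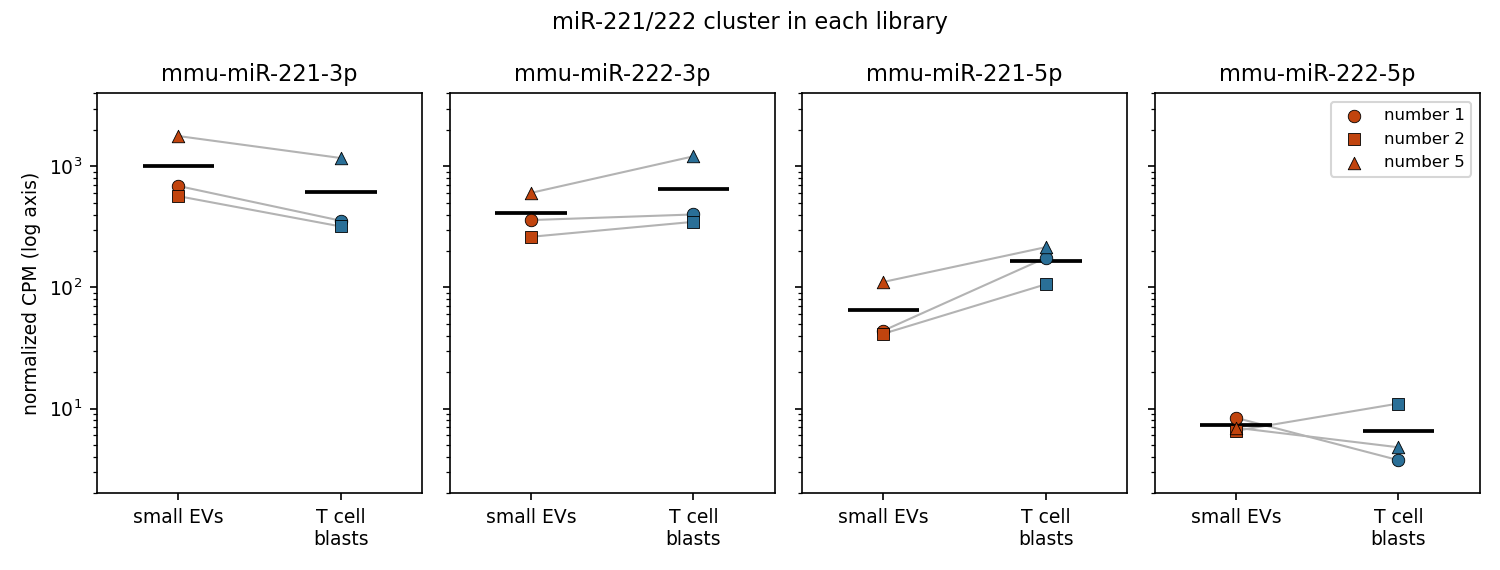
Normalized CPM (log axis) of the 4 members in each library, with small EVs on the left and T cell blasts on the right of each panel. Points are libraries, black bars are group means and gray lines join libraries of the same number. All 3 lines run down toward the blasts for mmu-miR-221-3p and up for mmu-miR-222-3p and mmu-miR-221-5p, and culture 5 lies above the others in the first 3 panels.

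mmu-miR-221-5p, the minor arm of the miR-221 hairpin, had 44.0, 41.5 and 111 CPM in small EVs 1, 2 and 5, from 21, 19 and 32 reads. In T cell blasts 1, 2 and 5 it had 176, 106 and 215 CPM, from 47, 29 and 45 reads. Small EVs 1 and 2 lay below all blasts, and small EVs 5, with 111 CPM, were just above blasts 2. The means were 65.5 ± 39.5 CPM in small EVs and 166 ± 55.2 CPM in blasts (SD, n = 3 each). It fell in small EVs by a log2 fold change of -1.42 (standard error 0.44, 95% interval -2.45 to -0.40, adjusted p = 0.0579, limma), with a 2-sided p of 0.2 in the exact permutation test. With the replicate block the adjusted p was 0.00502 (limma), and without small EVs 1 the unblocked call was lost (log2 fold change -1.21, adjusted p = 0.215, limma).

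mmu-miR-222-5p, the minor arm of the miR-222 hairpin, had 8.38, 6.55 and 6.94 CPM in small EVs 1, 2 and 5, from 4, 3 and 2 reads. In T cell blasts 1, 2 and 5 it had 3.75, 11.0 and 4.79 CPM, from 1, 3 and 1 reads. No library had a count of 0, but these counts lie near that limit. For scale, a count of 0 allows up to 3 reads, worth between 6.28 and 10.4 CPM for small EVs and between 11.0 and 14.4 CPM for blasts, for counting error only. The exact 95% binomial intervals of its share of reads overlapped between all libraries. With so few reads no difference was resolved at this depth (log2 fold change 0.26, 95% interval -1.11 to 1.63, adjusted p = 0.828, limma).

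Of the 4 members, 1 passed and was lower in small EVs. Of all 451 miRNAs 33.5% passed, 12.4% as lower and 21.1% as higher. This split depends on scaling, with 78 lower and 81 higher when libraries were rescaled to miRNAs that hold under 5% of every library, against 56 lower and 95 higher as deposited, and with the replicate block 98 lower and 93 higher, against 73 lower and 106 higher. With the replicate block 1 was higher and 2 were lower, against 23.5% higher and 16.2% lower among all miRNAs. No member had groups that did not overlap, which 34.8% of all miRNAs had.

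**Figure D2:**
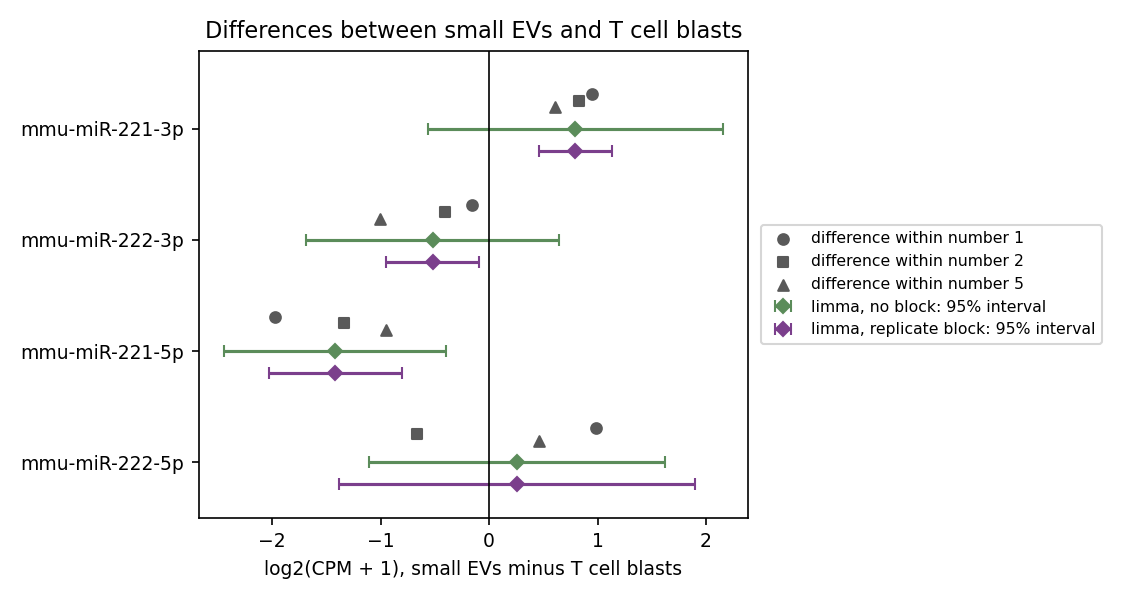
Difference between small EVs and T cell blasts on the log2(CPM + 1) scale for each member, with positive values higher in small EVs. Gray symbols are the differences within cultures 1, 2 and 5, and diamonds with bars are limma estimates with 95% intervals, unblocked and blocked by replicate number. The blocked interval of mmu-miR-221-3p (0.46 to 1.13) lies above 0 and those of mmu-miR-222-3p (-0.95 to -0.092) and mmu-miR-221-5p (-2.03 to -0.81) lie below it.

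To compare the 3p members without the scaling between libraries, their reads were set against each other inside each library. mmu-miR-222-3p made up 34.3% (95% exact binomial interval 30.2 to 38.7), 31.6% (26.9 to 36.5) and 25.3% (22.1 to 28.8) of the 3p reads in small EVs 1, 2 and 5. In T cell blasts 1, 2 and 5 its share was 53.0% (45.8 to 60.0), 52.2% (44.7 to 59.6) and 50.8% (46.3 to 55.3). In every small EV library mmu-miR-221-3p thus led by 1.91-, 2.17- and 2.95-fold, whereas blasts held nearly equal reads of both, and the groups did not overlap. The log2 ratio of mmu-miR-222-3p to mmu-miR-221-3p was -1.20 ± 0.32 in small EVs and 0.11 ± 0.063 in blasts (SD, n = 3 each), a difference of -1.32. The exact permutation test gave a 2-sided p of 0.1, the smallest it can give, and 0.15 after adjustment over the 3 ratios computed. Within cultures 1, 2 and 5 the ratio in small EVs was 0.464, 0.423 and 0.328 times that in blasts, with 95% intervals from counting error alone of 0.328 to 0.656, 0.289 to 0.618 and 0.255 to 0.423. Leaving out any single library kept the difference between -1.45 and -1.14, and without number 5 in both groups it was -1.17. Since ligation of adaptors depends on sequence, a ratio of reads in 1 library is not a ratio of molecules.

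This shift was set beside those of other clustered miRNAs. Pairs were formed from neighbouring precursors with start sites within 10 kb on one strand. Each precursor was taken by its most abundant listed arm among mature names matched at 1 precursor only. Arms shared by several precursors were thus left out, so some pairs hold a minor arm. The pair ranked first, mmu-let-7c-2-3p and mmu-let-7b-5p (3.23), is such a case. Among these 39 pairs the median absolute difference in log2 fold change was 0.67, and the pair of mmu-miR-221-3p and mmu-miR-222-3p came 8th. Groups did not overlap in 41.0% of these pairs. Among the 15 pairs in which both miRNAs averaged at least 50 CPM, a limit chosen after seeing the data, it came second after mmu-miR-212-3p and mmu-miR-132-3p (2.79), and 66.7% of these pairs did not overlap. That first pair met the limit through small EVs, where mmu-miR-212-3p averaged 288 CPM and mmu-miR-132-3p 136 CPM. In blasts they averaged 16.4 and 46.9 CPM. All pairs share the same 6 libraries, and unequal shifts of clustered miRNAs were common among them.

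The arms of the miR-221 hairpin also parted. mmu-miR-221-3p had 15.7, 13.7 and 16.0 reads for each read of mmu-miR-221-5p in small EVs 1, 2 and 5. In T cell blasts 1, 2 and 5 it had 2.02, 3.0 and 5.44. The 3p share of both arms was 93.2 to 94.1% in small EVs and 66.9 to 84.5% in blasts, with no overlap of the groups, and it varied more among the blasts. The log2 ratio was 3.89 ± 0.13 in small EVs and 1.68 ± 0.72 in blasts (SD, n = 3 each), a difference of 2.22 (exact permutation test, 2-sided p = 0.1, 0.15 after adjustment over 3 ratios). Arms were paired where their listed names differ only in 3p and 5p, which leaves out hairpins whose arms are named otherwise. Of these 116 pairs, 25.9% had groups that did not overlap in this ratio. The median change toward the major arm was 0.29 and miR-221 ranked 11th. Among the 67 whose minor arm averaged at least 10 CPM these values were 37.3% and 0.45, and miR-221 ranked 7th. For miR-222 the log2 ratio was 5.55 ± 0.61 in small EVs and 6.33 ± 1.43 in blasts (SD, n = 3 each), with overlap of the groups (2-sided p = 0.6, exact permutation test). With 1 to 4 reads of mmu-miR-222-5p per library, that ratio says little.

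**Figure D3:**
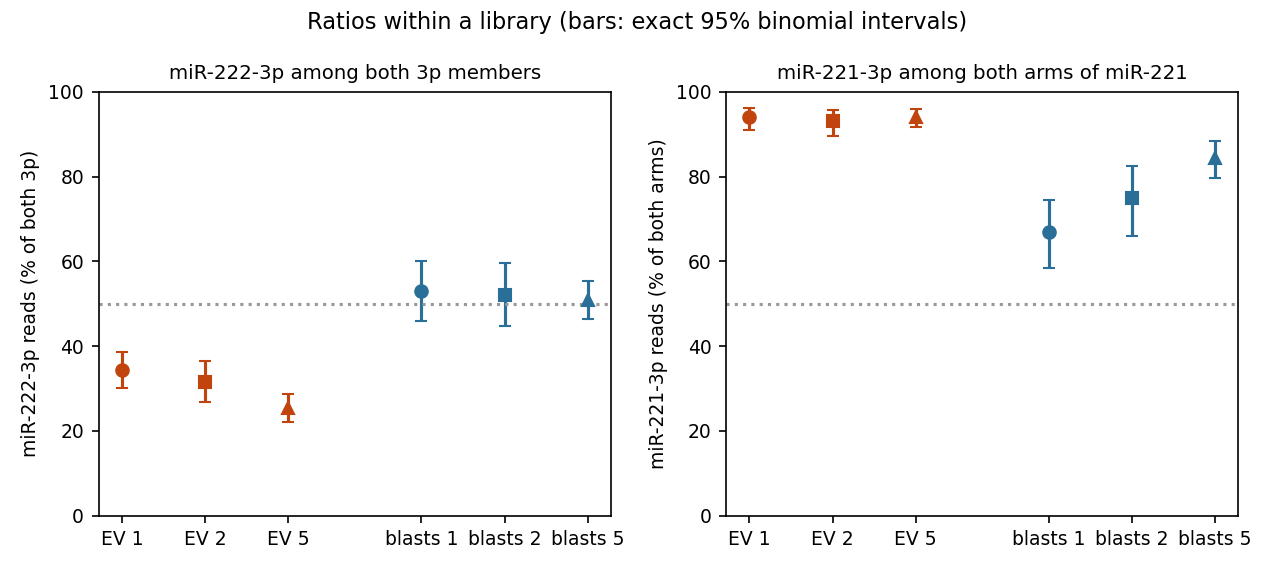
Shares of reads within each library, in percent, for small EVs 1, 2 and 5 on the left of each panel and T cell blasts 1, 2 and 5 on the right. Bars are exact 95% binomial intervals for counting error and the dotted line marks equal reads. On the left, mmu-miR-222-3p holds 25.3 to 34.3% of the 3p reads in small EVs and 50.8 to 53.0% in blasts. On the right, mmu-miR-221-3p holds 93.2 to 94.1% of the reads of its hairpin in small EVs and 66.9 to 84.5% in blasts.

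By mean CPM mmu-miR-221-3p ranked 65th in small EVs and 73rd in blasts, and mmu-miR-222-3p ranked 92nd in small EVs and 72nd in blasts, directly above mmu-miR-221-3p. The nearest miRNAs in small EVs were mmu-miR-363-3p (1052 ± 123 CPM) and mmu-miR-21a-3p (983 ± 65.6 CPM) around mmu-miR-221-3p, and mmu-miR-92b-3p (410 ± 50.1 CPM) and mmu-miR-744-5p (393 ± 53.0 CPM) around mmu-miR-222-3p. In blasts they were mmu-miR-10a-5p (702 ± 201 CPM) above and mmu-miR-298-5p (574 ± 59.8 CPM) below the pair (SD, n = 3 each). The range of each of these neighbours overlapped that of the member, so their order is not resolved. The 5p arms ranked 158th in small EVs and 118th in blasts for mmu-miR-221-5p, and 299th in small EVs and 313th in blasts for mmu-miR-222-5p. The summed level of the 3p members was 1049, 830 and 2385 CPM in small EVs 1, 2 and 5 and 757, 667 and 2383 CPM in blasts 1, 2 and 5.

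**Figure D4:**
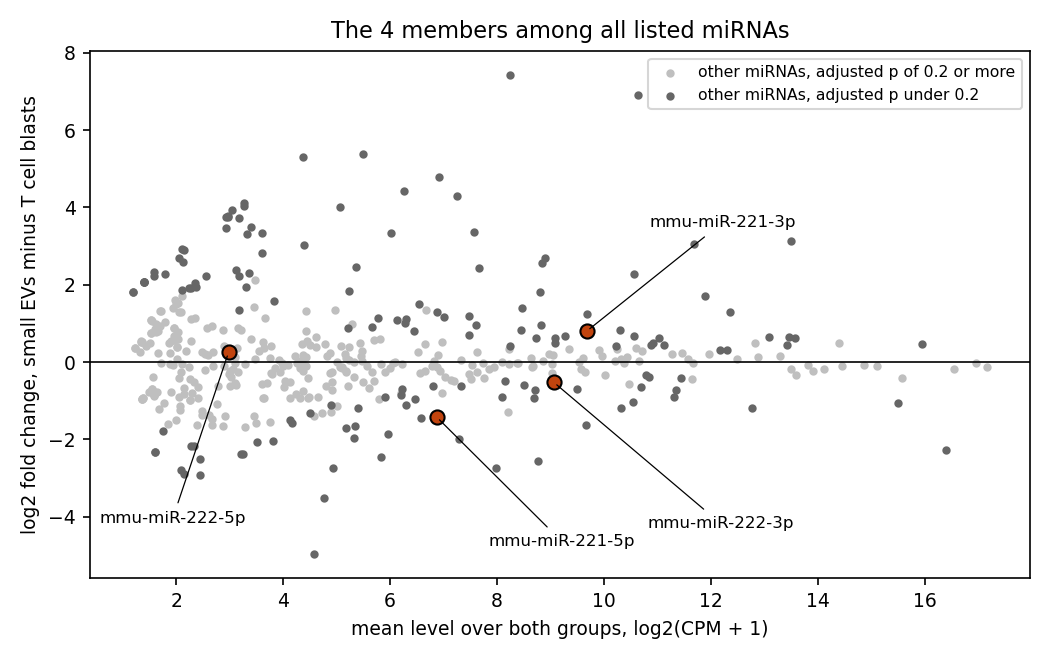
Log2 fold change of small EVs over T cell blasts against the mean level over both groups, both on the log2(CPM + 1) scale, for all 451 miRNAs. Dark gray points passed an adjusted p of 0.2 in limma without a block and light gray points did not, and the 4 members are in red. The 3p members lie on opposite sides of 0 (0.79 and -0.52) at similar levels.

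The 3p members also varied between cultures. mmu-miR-221-3p in culture 5 was 2.58 and 3.14 times its level in cultures 1 and 2 in small EVs, and 3.29 and 3.68 times in blasts. For mmu-miR-222-3p these ratios were 1.68 and 2.31 in small EVs and 3.02 and 3.48 in blasts. Culture 5 was thus highest for both 3p members in both groups. Of 174 miRNAs with a mean of at least 50 CPM, 4 (2.30%) were at least 2-fold higher in number 5 than in both 1 and 2 in small EVs and in blasts alike, a limit set after seeing the data, and mmu-miR-221-3p was among them. mmu-miR-222-3p was not, since small EVs 5 had only 1.68 times the level of small EVs 1. mmu-miR-150-5p, a miRNA of resting lymphocytes that falls upon activation, was named after its values were seen and ran the other way, with 14554, 11793 and 4844 CPM in small EVs 1, 2 and 5 and 20089, 17520 and 4647 CPM in blasts 1, 2 and 5. The 17 miRNAs induced in activated lymphocytes that are described below did not move together. Number 5 over the mean of 1 and 2 ran from 0.82 (mmu-miR-212-3p) to 3.72 (mmu-miR-31-5p) in small EVs. In blasts the same 2 miRNAs marked the range, at 0.21 and 3.94. The 0.21 rests on 4.79 CPM of mmu-miR-212-3p in blasts 5, where 1 read is worth 4.79 CPM. The next lowest in blasts was mmu-miR-20a-5p, at 0.78. A difference in activation between cultures was not tested.

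The miRNAs with the most similar profile were sought by Pearson correlation of log2(CPM + 1) over the 6 libraries, among the 173 other miRNAs of at least 50 CPM. For mmu-miR-221-3p they were mmu-miR-22-3p (0.98), mmu-miR-425-5p (0.95) and mmu-miR-34c-5p (0.94). mmu-miR-22-3p had 21349, 18747 and 32485 CPM in small EVs 1, 2 and 5 and 12463, 11463 and 32353 CPM in blasts 1, 2 and 5. For mmu-miR-222-3p they were mmu-miR-27b-3p (0.96), mmu-miR-340-5p (0.94) and mmu-miR-147-3p (0.92). The 3p members correlated with each other at 0.65, which placed each of them 24th or 25th in the order of the other. These are descriptions over 6 libraries that share their groups and culture 5.

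Other miRNAs induced in activated lymphocytes were set beside the 3p members. Of 17 on this list, all listed in the table, 6 were higher and 1 lower in small EVs and 10 did not pass, beside 21.1% higher and 12.4% lower among all miRNAs, with a median log2 fold change of 0.14 (0.017 over all 451 miRNAs). The replicate block gave 7 higher, 3 lower and 7 not passing, beside 23.5% and 16.2% among all miRNAs. By level in small EVs the list was led by mmu-miR-92a-3p of the miR-17~92 cluster (log2 fold change -0.14, standard error 0.14), mmu-miR-21a-5p, a repressor of Pdcd4 (-0.030, standard error 0.15), mmu-miR-182-5p, an IL-2-induced repressor of Foxo1 (-0.42, standard error 0.25), and mmu-miR-19b-3p (0.14, standard error 0.12), none of which passed in limma without the block. With the block mmu-miR-182-5p passed as lower in small EVs (adjusted p = 0.189, limma). The next members, mmu-miR-155-5p and mmu-miR-146a-5p, both induced by NF-kB, were higher in small EVs (1.29, standard error 0.22, adjusted p = 0.0063, and 1.71, standard error 0.15, adjusted p = 0.000425, limma). Their cultures varied less than those of the 3p members: mmu-miR-155-5p had 6544, 6945 and 8527 CPM in small EVs 1, 2 and 5 and 2289, 2922 and 3987 CPM in blasts 1, 2 and 5. A difference in response between these miRNAs and the cluster was not tested.

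Short letters known from vesicle sorting were looked for in the mature sequences, on the given strand. GGAG, a motif bound by hnRNPA2B1, was in 7.84% of the 370 matched miRNAs, and CCCU in 13.2%. Neither was found in mmu-miR-221-3p, mmu-miR-222-3p or mmu-miR-221-5p. This says only that these letters are not in these windows. The 3p members have 23 bases each, against a median of 22 over the matched miRNAs, with 47.8% G or C in mmu-miR-221-3p and 52.2% in mmu-miR-222-3p (median 49.0%).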

How the data were processed

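Small RNA of 6 libraries (NEBNext kit, single reads of 75 bp) was analyzed, grouped by the sample titles. The authors trimmed reads with Cutadapt, discarded those under 20 bp or untrimmed, aligned what remained to the mature miRNAs in miRBase 21 with bowtie or BWA and quantified them with RSEM (processing notes: BWA, RSEM 1.17, CASAVA 1.8.2). The deposited signal is CPM normalized by TMM in edgeR, for miRNAs of at least 1 CPM in 3 libraries. In each library 100% of values were whole multiples of 1 read, with a tolerance of 0.05 reads, which gave the read counts back. At 236432 to 463498 reads per library, intervals cover counting error only. Reads of less than full length, which could fit several miRNAs, cannot be recognized here.

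Small EVs were compared with T cell blasts in limma 3.58.1 (R 4.3.3) on log2(CPM + 1), with a trend and no block, over 451 miRNAs (Benjamini-Hochberg, threshold 0.2), and single values by exact permutation. Recovered reads were tested with edgeR 4.0.16 and DESeq2 1.42.0 as alternatives. On them edgeR called 82 miRNAs higher and 61 lower, DESeq2 64 and 41. Scripts were tested on simulated data. Libraries are described as independent experiments. Those of the same number deviated together (correlation across 284 miRNAs of 0.15, 0.16 and 0.34 for numbers 1, 2 and 5), so the numbers were taken to pair them. Only number 5 is set apart by this, since small EVs 1 correlated at 0.17 with T cell blasts 2. The members, the lists of activation and marker miRNAs and the tests were chosen with earlier results of these data known. Named miRNAs are the members, those of like profile or level, and the first 6 of the activation list. Marker miRNAs are named besides, and, chosen after their values were seen, neighbouring pairs with larger differences, mmu-miR-150-5p and other miRNAs high in number 5.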

Additional observations from a re-analysis of the deposited data

How the results depend on the processing

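mmu-miR-221-3p stayed higher in small EVs under all 25 alternatives, and mmu-miR-221-5p stayed lower under all 25. Not all of these could turn the direction. The thresholds of 0.05 and 0.02 reuse the main fold change. With each number in both groups, the block in limma leaves the fold change as it is without a block. For mmu-miR-221-3p the log2 fold change passed at 0.79 with the replicate block in limma and in edgeR, and, chosen after seeing the data, at 0.97, 0.80 and 0.62 with the block and libraries rescaled to an equal sum, by median-of-ratios factors or to miRNAs under 5%, at 0.72, 0.78 and 0.89 with the block and without number 1, 2 or 5, and at 0.89 without number 5 and without a block. Leaving out 1 library without a block gave 0.29 to 1.39. For mmu-miR-222-3p it passed at -0.52 with the replicate block, -0.54 in edgeR with the block, -0.51 and -0.69 with the block and median-of-ratios factors or miRNAs under 5%, and -0.58 and -0.71 with the block and without number 2 or 1. Leaving out 1 library gave -0.85 to 0.043, with the direction turned without T cell blasts 5. mmu-miR-221-5p (-1.42) did not pass 0.05 or 0.02 and ranged from -1.87 to -1.17 without 1 library. mmu-miR-222-5p was -0.013 to 0.66 without 1 library, turned without T cell blasts 1, and -0.11 with the block and without number 1; a mean of at least 10 CPM left it untested. The causes were not tested. The 151 calls over all miRNAs became 87 at 0.05 and 53 at 0.02, with fewer passing by construction, and 123 to 170 without 1 library. Pairing changed the calls of mmu-miR-221-3p and mmu-miR-222-3p and of no other member. The ratios within a library moved by less than the spread between replicates in all 10 alternatives each. Of these, the mean of the differences within numbers equals the main value by construction. Without 1 library the differences were -1.45 to -1.14 for mmu-miR-222-3p over mmu-miR-221-3p, 1.88 to 2.60 between the arms of miR-221 and -1.51 to -0.086 between those of miR-222. For the arms of miR-222 that spread was wide (SD 0.61 in small EVs and 1.43 in blasts), so staying within it says little.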

Other observations

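Besides mmu-miR-221-3p, the miRNAs at least 2-fold higher in number 5 than in numbers 1 and 2 in both groups were mmu-miR-31-5p, mmu-miR-34c-5p and mmu-miR-6240, chosen after their values were seen. mmu-miR-31-5p, which is induced in activated T cells, had 73.3, 100.5 and 323 CPM in small EVs 1, 2 and 5 and 154, 271 and 838 CPM in T cell blasts 1, 2 and 5. Like mmu-miR-222-3p it was lower in small EVs in each culture, and it passed only with the replicate block (log2 fold change -1.28, adjusted p = 0.29 without and 0.00108 with the block, limma). mmu-miR-34c-5p, which p53 induces, had 58.7, 103 and 233 CPM in small EVs 1, 2 and 5 and 26.2, 18.3 and 168 CPM in blasts 1, 2 and 5. Like mmu-miR-221-3p it was higher in small EVs in each culture. Its adjusted p was 0.351 without and 0.0299 with the block (limma). For mmu-miR-6240 the levels were 147, 240 and 656 CPM in small EVs 1, 2 and 5 and 22.5, 14.7 and 57.4 CPM in blasts 1, 2 and 5. Unlike the others it passed without the block too (log2 fold change 3.36, adjusted p = 0.0112 without and 4.73e-05 with the block, limma).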
